A study of Homo sapiens with 2 samples.

Results

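Intermediate filament genes of the neurofilament group were followed in HEK293 cells, a line of human embryonic kidney origin, parental or carrying a knockout of the La-related protein LARP7. The 7 genes were NEFL, NEFM, NEFH, INA, PRPH, NES and VIM, of 57894 genes with a transcript in the tables, and they had 29 of 197318 matched transcripts. They were chosen by name as a family, after NEFM was already known to be lower in the knockout in this same comparison. For that reason the differences of these 7 genes between the groups are given as a description, without a p-value. Total RNA of parental HEK293 cells (2 libraries) was compared with total RNA of HEK293 LARP7 knockout cells of clone 1-11 (2 libraries), to measure how LARP7 depletion affects transcripts and their splicing. Both groups grew in the same serum-containing medium and no treatment is named. All knockout libraries came from 1 clone, so other differences between that clone and the parental cells cannot be told apart from the loss of LARP7. The source field of the knockout sample reads wildtype, whereas its title and genotype field name the knockout, and the genotype field was followed. It is not stated whether a group's libraries stem from separate cultures. The p-values then cover the spread of these libraries alone, and that spread may be technical. In bulk RNA, fewer cells that express a gene and less RNA per cell cannot be told apart.

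Intermediate filament proteins share a central rod domain through which they coil around each other and assemble into ropelike filaments. Neurofilaments of mature axons are mixed polymers of NEFL, the light chain on which assembly depends, NEFM and NEFH, the medium and heavy chains with long phosphorylated tails, and INA (alpha-internexin) or PRPH (peripherin). NES (nestin) belongs to neural progenitors and VIM (vimentin) to mesenchymal cells and most cultured lines. HEK293 cells are known to express neurofilament genes although they were derived from embryonic kidney. LARP7 binds and stabilises 7SK, a small nuclear RNA that holds the elongation kinase P-TEFb in an inactive complex.

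Of the 7 genes, INA, NES, VIM and PRPH (4 genes) matched the RefSeq promoter table (GRCh38.p14). The 120 bases before the RefSeq start site are shown for INA and NES, which have 1 transcript each and whose knockout libraries both lay above both parental libraries. The VIM entry precedes VIM-209, which held 0.263 to 0.567% of the TPM of VIM, and not the main transcript, and the PRPH window overlaps an annotated exon, so neither is shown. Each is written 5′ to 3′ on the strand of the gene, and capitals mark the GC box GGGCGG on either strand, which reads CCGCCC on the reverse strand. The windows are chr10:103277018-103277137 (plus strand) for INA and chr1:156677408-156677527 (minus strand) for NES.
INA: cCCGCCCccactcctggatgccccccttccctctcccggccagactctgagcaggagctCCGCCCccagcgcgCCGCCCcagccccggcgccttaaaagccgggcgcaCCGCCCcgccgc
NES: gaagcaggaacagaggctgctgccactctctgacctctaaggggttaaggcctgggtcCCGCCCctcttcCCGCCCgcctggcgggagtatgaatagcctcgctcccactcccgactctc
The INA window held 4 GC boxes and the NES window 2. Among 35116 promoter windows of the same 120 bases, 34.0% held at least 1 GC box. Neither window held TATAAA, the core of a TATA box found in 5.63% of all windows, on either strand. CCAAT, found in 20.4%, was not in them either, nor was the AP-1 motif TGANTCA, found in 3.34%. The motifs do not overlap one another, and a match describes the letters only.

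Depth came to 18483220 estimated reads in parental replicate 1, 12851942 in parental replicate 2, 16838501 in knockout replicate 1 and 16218587 in knockout replicate 2. Parental replicate 2 was the shallowest, and 1 short RNA, RNU1-4, took 17.5% of its TPM, against 6.47 to 8.19% for the highest RNA of the other libraries. TPM, abundance per transcript length scaled to a fixed total, is therefore used here only to compare genes within a library. Differences between groups are given in CPM, read counts per library size scaled with TMM factors, and as log2 fold changes of knockout over parental with a standard error (SE) from edgeR. As a check of the labels, LARP7 itself stood at 59.8 and 46.5 CPM in parental cells against 36.1 and 31.9 CPM in the knockout, a log2 fold change of -0.65 that did not pass edgeR's quasi-likelihood test (adjusted p = 0.135). It passed under 5 of 15 alternatives, and counted over protein-coding transcripts alone it was -1.44 (edgeR adjusted p = 0.0226). The 7SK entry with reads went from 5572 and 5481 CPM to 169.5 and 204.5 CPM and was 29.6-fold lower (edgeR adjusted p = 1.13e-06). Of 18484 genes tested, 154 (0.833%) passed an adjusted p of 0.05 and 93 (0.503%) passed it downwards. An unadjusted p under 0.05 was found for 14.3% of these genes, and DESeq2 called 2.24% and limma voom 0.812% of the genes for which each gave an adjusted p. Normalised read counts of the groups did not overlap for 8555 genes (46.3%).

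All 7 genes passed the filter on low counts. NEFM was the single gene of the 7 past the threshold, downwards, and nothing is read from that count beside the background of 0.833%, since NEFM led to the choice of the family. The other 6 did not pass. The groups did not overlap for 4 genes, NEFM (lower in the knockout) and INA, NES and VIM (higher), beside 46.3% of all tested genes, and overlapped for NEFL, NEFH and PRPH. The log2 fold change was above 0 for 4 of the 7, and its median over all tested genes was 0.002.

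**Figure D1:**
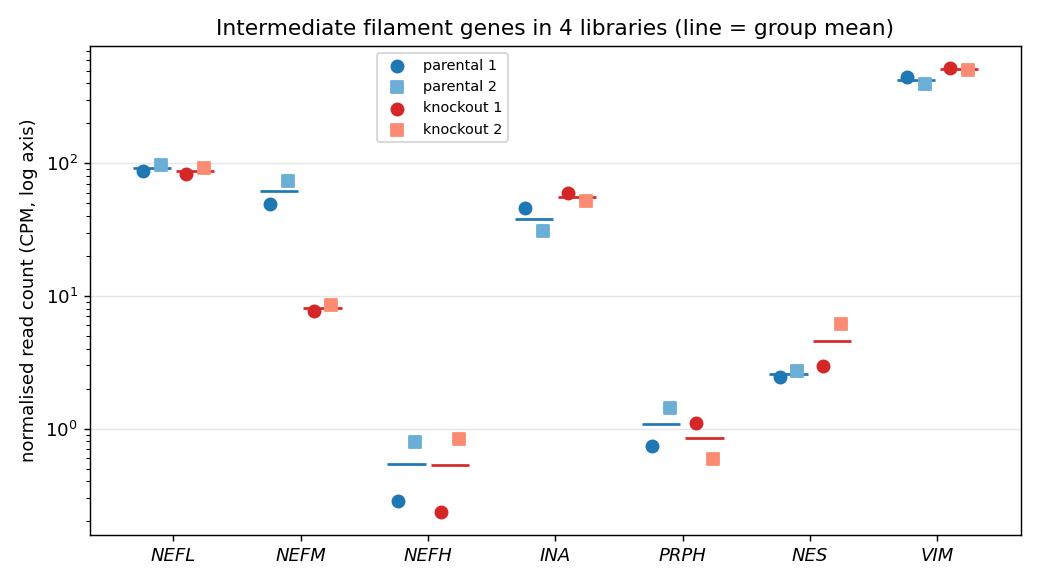
Normalised read count (CPM, log axis) of the 7 intermediate filament genes in the 4 libraries; points are libraries and lines are group means. NEFM drops from 49.4 and 73.6 CPM in parental cells to 7.76 and 8.58 CPM in the knockout, while NEFL stays between 82.7 and 97.5 CPM in all 4 libraries.

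NEFM encodes the medium neurofilament chain, on chromosome 8 at 24913012 to 24919098 (plus strand, hg38). It had 869.1 and 926.7 estimated reads in parental cells against 133.0 and 145.0 in knockout cells, which is 49.4 and 73.6 against 7.76 and 8.58 CPM. Both knockout libraries lay far below both parental ones and close to each other. The mean was 61.5 ± 17.1 CPM (SD, n = 2) in parental cells and 8.17 ± 0.577 CPM (SD, n = 2) in the knockout, a 7.51-fold lower level (log2 fold change -2.91, SE 0.222). The spread between the parental libraries, with replicate 2 the higher, was small beside this difference. NEFM was detected in all 4 libraries, and among 19815 protein-coding genes it ranked 5546 and 3873 by TPM in parental cells against 10447 and 10487 in the knockout.

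NEFL, the light chain, is the nearest tested protein-coding gene to NEFM on the higher-coordinate side. It lies 31857 bases away and is transcribed from the other strand (chromosome 8, 24950955 to 24957110). Parental libraries gave it 1532 and 1228 estimated reads, knockout libraries 1417 and 1555. The CPM values of 87.0 and 97.5 against 82.7 and 92.0 overlapped between the groups. The log2 fold change was -0.08 (SE 0.130). The ratio of NEFM to NEFL in TPM, which compares both genes per length within a library, was 0.668 and 0.826 in parental cells against 0.137 and 0.12 in the knockout. Per length, NEFM thus stood at a large share of NEFL in parental cells and at a small one in the knockout. NEFH, the heavy chain on chromosome 22 (29480230 to 29491390, plus strand), was nearly silent, with 5 and 10 parental reads against 4 and 14 knockout reads. At such counts its log2 fold change of 0.02 (SE 0.88) carries no direction, and it turned negative under 7 of 14 alternative settings.

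INA encodes alpha-internexin, a neurofilament subunit of early neurons, in a single annotated transcript on chromosome 10 (103277163 to 103290351, plus strand). It had 803 and 386 parental reads against 1015 and 872 knockout reads, or 45.6 and 30.7 against 59.2 and 51.6 CPM. Both knockout libraries were above both parental ones, and the parental libraries differed from each other in the opposite direction to NEFM, replicate 1 being the higher. The means were 38.1 ± 10.6 and 55.4 ± 5.41 CPM (SD, n = 2 each), 1.45-fold higher in the knockout (log2 fold change 0.53, SE 0.19). The ratio of NEFM to INA in TPM went from 1.09 and 2.42 in parental cells to 0.149 and 0.175 in the knockout, so that the order of both genes per length was turned around. PRPH, the type III filament protein of peripheral neurons (chromosome 12, 49293252 to 49298686, plus strand), had 13 and 18 reads against 19 and 10. Its groups overlapped, and the log2 fold change of -0.33 (SE 0.67) changed sign under 3 of 13 alternative settings.

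VIM, the filament gene of mesenchymal and cultured cells (chromosome 10, 17228259 to 17237593, plus strand), was by far the most abundant. Its CPM was 446.7 and 395.5 in parental cells against 520.9 and 507.8 in the knockout, with means of 421.1 ± 36.1 and 514.4 ± 9.21 (SD, n = 2 each). Both knockout libraries were the higher ones, by 1.22-fold on average (log2 fold change 0.29, SE 0.11). NES, the large filament protein of neural progenitors, which co-assembles with vimentin (chromosome 1, 156668763 to 156677397, minus strand), was rare. It had 43 and 34 parental reads against 51 and 103 knockout reads, or 2.44 and 2.70 against 2.98 and 6.09 CPM. Knockout replicate 2 stood well above the other 3 libraries, and the groups were only just apart. The log2 fold change of 0.82 (SE 0.43) was 0.22 without knockout replicate 2.

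**Figure D2:**
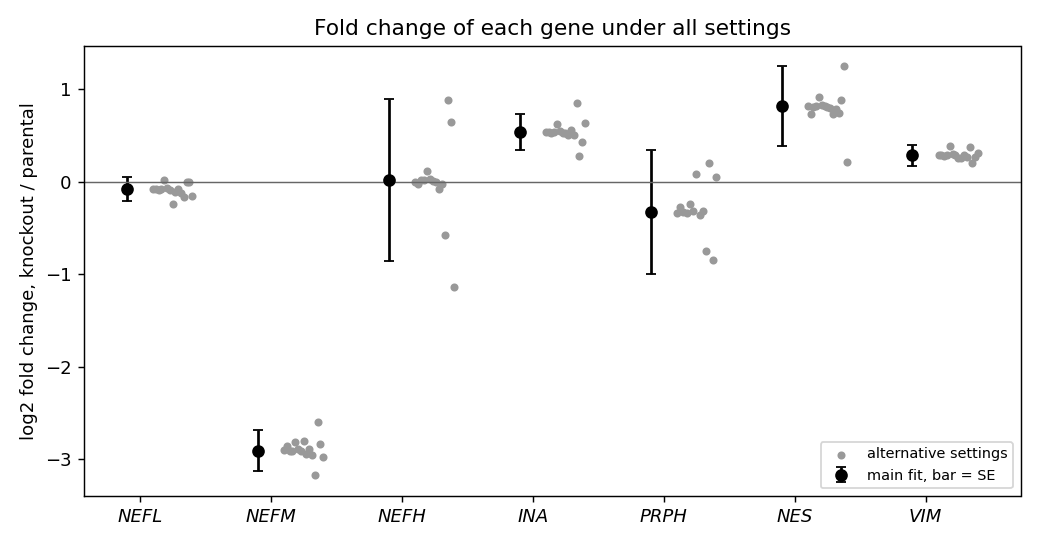
Log2 fold change, knockout over parental, of the 7 genes: the black point with its SE bar is the edgeR value, and grey points are the alternative settings (other tests, scalings, filters and left-out libraries). NEFM stays between -3.17 and -2.60, and the settings for NEFH and PRPH lie on both sides of 0.

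Compared per length within each library, VIM held 83.3 and 79.6% of the summed TPM of the 7 genes in parental cells against 87.9 and 87.4% in the knockout, with TPM values from 146.3 to 283.6. NEFL came next in every library, at 16.8 to 20.8 TPM. In parental cells NEFM followed (11.8 and 13.9 TPM) and then INA (10.8 and 5.74 TPM), 2 genes that were close in replicate 1. In the knockout the order was INA (16.8 and 14.2 TPM) before NEFM (2.51 and 2.49 TPM). NES (0.286 to 0.948 TPM) and PRPH (0.25 to 0.866 TPM) changed places between libraries and are not separated by their spread. NEFH was the lowest in all 4 libraries, at 0.056 to 0.193 TPM. Of the neurofilament triplet, the heavy chain was thus close to absent in both groups. In CPM, the measure used here between groups, the light chain overlapped between the groups and the medium chain did not.

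The estimated reads of NEFM were divided among annotated transcripts that differ in the first exon and in the last, which encodes the tail of the protein. The first exon has 1862 bases in NEFM-201, 1110 in NEFM-203 and 1113 in NEFM-204. A difference in share therefore need not lie in the last exon. NEFM-203 lacks 117 bases (chromosome 8, 24917732 to 24917848) and NEFM-204 lacks 654 bases (24917617 to 24918270) of the last exon of NEFM-201; both lengths are multiples of 3. The sequence missing from NEFM-204 starts with GT and ends with AG, the letters of a usual intron. The one missing from NEFM-203 does not start with GT, and its ends lie in a 36-base direct repeat. NEFM-202 starts at another first exon.

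NEFM-203 had 305.6 and 397.8 estimated reads in parental libraries against 5.2 and 4.0 in knockout ones. Its share of the gene's TPM was 35.9 and 43.9% in parental cells against 3.5 and 2.7% in the knockout, with means of 39.9 ± 5.6 and 3.10 ± 0.567% (SD, n = 2 each). NEFM-204 went the other way, with 0 and 0.3 parental reads against 75.3 and 38.2 knockout reads. Its share was 0 and 0.0481% against 65.7 and 33.1%, and the knockout libraries differed widely from each other. The full-length NEFM-201 held 34.3 and 27.8% in parental cells against 22.4 and 37.0% in the knockout, which overlap, and its estimated reads were 378.3 and 326.7 against 42.9 and 71.1. NEFM-202 held 27.3 and 28.3% against 8.34 and 27.3%. NEFM-205 had no reads, and NEFM-206 had 2.6 reads in 1 parental library.

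In NEFL, the main transcript NEFL-201 held 84.8 and 73.6% of the TPM in parental cells against 100 and 91.9% in the knockout. The shorter NEFL-203 held 14.1 and 25.8% against 0 and 6.87%. For VIM, the main transcript VIM-201 held 85.5 and 81.5% in parental cells against 87.4 and 85.2% in the knockout. INA, NES and NEFH each have 1 transcript in the tables. Of 14 transcripts of 3 genes (NEFL, NEFM and VIM) with a mean of at least 10 reads, 5 had shares that did not overlap between the groups and lay at least 10 points apart: NEFL-201, NEFL-203, NEFM-202, NEFM-203 and NEFM-204. NEFM-202 met both limits narrowly and through knockout replicate 1 alone. The mean was taken over both groups together, so NEFM-203 entered through its parental reads and NEFM-204 through its knockout reads. Such entry by itself favours shares that differ between the groups. Both limits were also met by 10.2% of 45194 transcripts of all genes, and by at least 1 transcript in 3275 of 10221 genes. The 5 belong to NEFL and NEFM and are not independent, since the shares within a gene add up to a fixed total. With shares of estimated reads in place of TPM, 2 of the 5 remained past it, NEFM-203 and NEFM-204. With a minimum mean of 50 reads, NEFM-204 had too few reads to enter the rule. The share of all transcripts past the rule under these 2 settings is not given, so nothing is read from the number that remained. The division of reads among transcripts that share most of their sequence is itself an estimate, and its error is not in these values.

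**Figure D3:**
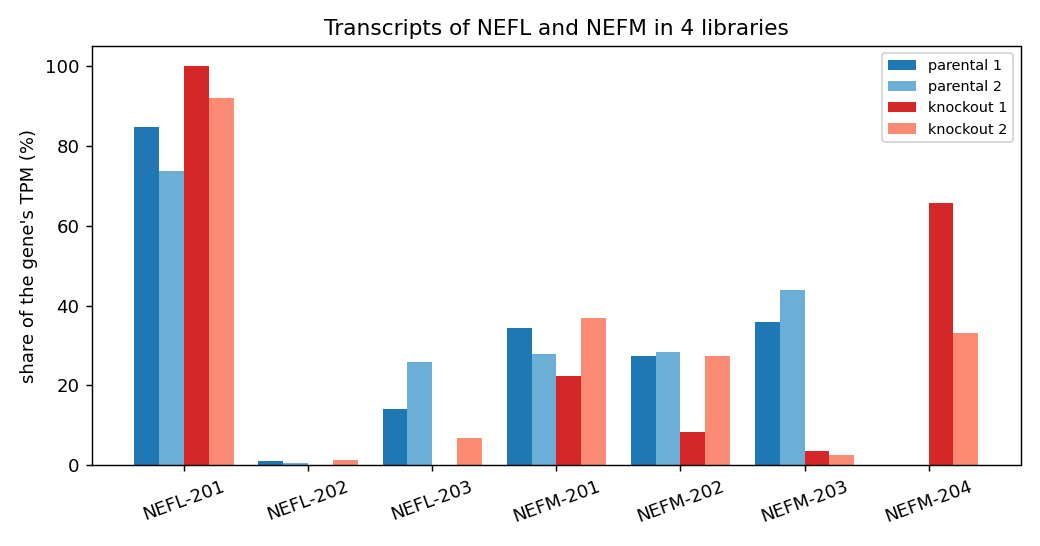
Share of each gene's TPM (%) held by the annotated transcripts of NEFL and NEFM; bars are single libraries. NEFM-203 is at 35.9 and 43.9% in parental cells and at 3.5 and 2.7% in the knockout, whereas NEFM-204 has a visible bar only in the knockout, at 65.7 and 33.1%.

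Genes that overlap or resemble the 7 took few reads. The antisense gene AF106564.1, across the start of NEFM, had 21.9 and 7.3 parental reads against 0 and 3.0 knockout reads, too few to be tested. VIM-AS1, antisense to VIM, had 14 to 29 reads per library. AC107373.2, at NEFL, had 1 read in a single library. AC125611.4, antisense to PRPH, had 10 and 9 parental reads against 3 and 10 knockout reads. PRPH itself had few more, 13 and 18 parental reads against 19 and 10 knockout reads. Whether counting used the strand is not given in the sources used here, so reads of a gene and of its antisense partner cannot be told apart. The processed pseudogenes NEFHP1, NEFMP1 and NEFLP1 had no reads, and VIM2P had 1.0 to 10.0 per library.

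Expression around the 7 genes was compared through the 5 nearest tested protein-coding genes on each side. Of 60 such neighbours outside the family, 1 passed edgeR's test (0.833% of all tested genes did), 9 had an unadjusted p under 0.05 (14.3% of all), and the median log2 fold change was 0.02. The exception was EBF2, a developmental transcription factor gene 884620 bases from NEFL on chromosome 8, which stood at 4.15 and 4.84 CPM in parental cells against 11.8 and 11.9 CPM in the knockout (log2 fold change 1.41, SE 0.25, edgeR adjusted p = 0.0493). It missed the threshold under 8 of 15 alternatives, among them limma voom (adjusted p = 0.0514) and the left-out knockout replicate 1 (0.0967) or 2 (0.105). The nearest tested protein-coding gene on the other side of NEFM is STC1, which encodes the hormone stanniocalcin. It lies 1058205 bases away, had 10 and 20 reads against 40 and 66, and did not pass (log2 fold change 1.57, SE 0.58, edgeR adjusted p = 0.278). Beyond NEFL the next tested protein-coding gene is DOCK5, a guanine nucleotide exchange factor gene, with a log2 fold change of -0.22 (SE 0.12). The 10 neighbours of NEFM ranged from -0.43 to 1.57. None was as far below 0 as NEFM, whose fall led to the choice of the family. The medians for the 10 neighbours of NEFL, NEFM, NEFH, INA, PRPH, NES and VIM were 0.01, -0.05, -0.10, 0.01, 0.13, 0.03 and 0.07. NEFM is among the 10 of NEFL, and NEFL among the 10 of NEFM.

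**Figure D4:**
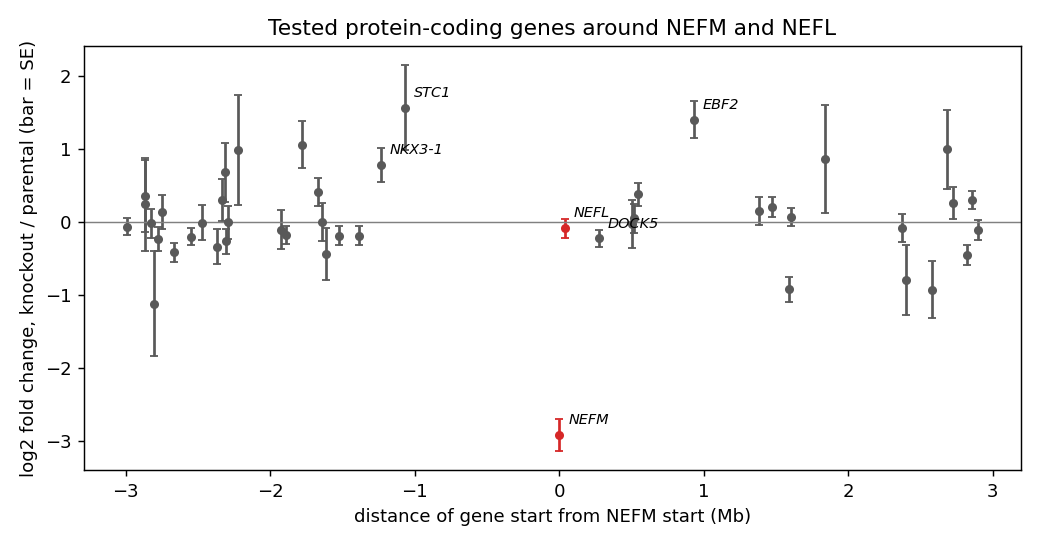
Log2 fold change (knockout over parental, bars = SE) of the 46 tested protein-coding genes that start within 3 Mb of NEFM, against distance from the NEFM start; red points are NEFM and NEFL. NEFM, whose fall led to the choice of the family, is at -2.91 and lies below all others. NEFL is at -0.08, and EBF2 is at 1.41.

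Genes that work with intermediate filaments were read from 9 lists of 111 genes, of which 83 were tested. None passed edgeR's test upwards and 1 passed downwards; 16 had an unadjusted p under 0.05 (14.3% of all tested genes did), DESeq2 called 3 (2.24% of all) and limma voom 1 (0.812% of all). The one called was NPTX1, a neuronal pentraxin of synapses in the list of neuronal and synaptic genes. It stood at 18.1 and 22.5 CPM in parental cells against 5.43 and 7.28 in the knockout (log2 fold change -1.67, SE 0.24, edgeR adjusted p = 0.0197) and missed the threshold with an offset for transcript length (0.144). Its list had 13 tested genes of 16, 12 of them not called, and a median of 0.30. NCAM1, a neural adhesion molecule, was at 38.0 and 55.2 against 64.7 and 78.0 CPM (log2 fold change 0.62, edgeR adjusted p = 0.193). SYT1, a calcium sensor of synaptic vesicles, was at 7.61 and 11.7 against 15.2 and 19.9 CPM (0.87, edgeR adjusted p = 0.184). POU4F1, a transcription factor of sensory neurons, was at 48.0 and 71.0 against 30.6 and 34.9 CPM (-0.86, edgeR adjusted p = 0.106). ELAVL2 of the same list had a log2 fold change of 0.28. DESeq2 also called POU4F1 and, in the turnover list, the ubiquitin hydrolase gene UCHL1, which was named after its values were seen (log2 fold change 0.59, edgeR adjusted p = 0.103). ENO2, the neuronal enolase, also named after its values were seen, had 33 and 27 reads against 5 and 6 (-2.60, SE 0.62, edgeR adjusted p = 0.119). Of the 13 tested neuronal genes, 10 had a log2 fold change above 0 and 3 below.

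Among 18 keratin genes, the epithelial filament proteins, 3 were tested, none was called and 9 had no reads. KRT18, a simple-epithelium keratin, was at 16.0 and 10.2 CPM in parental cells against 19.1 and 18.6 CPM in the knockout (log2 fold change 0.51, edgeR adjusted p = 0.378). KRT8 and KRT10 had log2 fold changes of 0.36 and -0.21. Of 10 other filament genes, 7 were tested and none was called, with a median of 0.27. They include the lamins, which line the nucleus: LMNB1 was at 221.7 and 180.6 against 190.8 and 166.5 CPM, and LMNA at 14.4 and 12.1 against 21.4 and 20.1 CPM (0.64, SE 0.19, edgeR adjusted p = 0.178). LMNB2 and IFFO1 of the same list had log2 fold changes of 0.09 and -0.02. The desmin and glial filament genes DES and GFAP had too few reads to be tested.

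The cytolinkers, which tie filaments to actin and microtubules, had 6 tested genes of 8, none called, with a median of 0.05. DST, the dystonin gene, was at 271.0 and 295.9 against 378.0 and 383.2 CPM (log2 fold change 0.43, SE 0.11, edgeR adjusted p = 0.147), and PLEC, the plectin gene, at 105.9 and 93.5 against 87.9 and 73.1 CPM. MACF1 and DSP, also abundant, had log2 fold changes of 0.08 and 0.03. Kinases, phosphatases and turnover factors of neurofilaments had 17 tested genes of 19, none called with edgeR, and a median of 0.07. All 10 motors of axonal transport were tested, none was called and the median was 0.01. KIF5B, a kinesin heavy chain, was at 363.9 and 317.3 against 394.4 and 366.7 CPM, and KLC1, a kinesin light chain, at 115.2 and 122.9 against 92.2 and 95.9 CPM. DYNC1H1 and DCTN1, also abundant, had log2 fold changes of -0.006 and 0.02. Of 14 microtubule and growth cone genes of neurons, 11 were tested and none was called (median 0.04). MAP1B, a microtubule-associated protein of growing axons, was at 176.1 and 226.5 against 147.9 and 156.4 CPM (-0.40, SE 0.15, edgeR adjusted p = 0.266). MARCKS, DPYSL2 and TUBB2B, also abundant, had log2 fold changes of 0.04, 0.07 and -0.45.

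REST, the repressor of neuronal genes in other tissues, and its partners made a list of 10 genes, all tested and none called (median 0.01). Of these, 0 had an unadjusted p under 0.05, beside 14.3% of all tested genes. REST was at 94.9 and 95.0 CPM in parental cells against 113.0 and 114.7 in the knockout (log2 fold change 0.26, SE 0.12, edgeR adjusted p = 0.363), named for its place in the list and not by level. The 6 genes for RNA-binding proteins of neurofilament mRNA, such as TARDBP and HNRNPK, were all tested and not called (median 0.05).

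Markers of other cell types were read the same way. The 5 marker lists had 35 genes, of which 16 were tested and 8 had no reads. None was called with edgeR, DESeq2 or limma voom, and 1 had an unadjusted p under 0.05 (14.3% of all tested genes did). Neural progenitor markers summed to 158.3 and 180.3 CPM in parental cells against 183.2 and 176.4 in the knockout, led by CDH2 and PAX6. Chromaffin and sympathoadrenal markers summed to 6.59 and 8.26 against 5.49 and 5.86 CPM, with 2 of 7 tested, GATA3 and HAND2. Kidney markers summed to 43.8 and 33.7 against 46.6 and 49.4 CPM, with 7 of 9 tested and a median log2 fold change of 0.19. SIX2, a nephron progenitor factor and the most abundant of them, was at 20.7 and 14.1 against 20.7 and 22.4 CPM. EYA1, another such factor, was at 3.69 and 3.97 against 7.76 and 8.76 CPM (log2 fold change 1.11, edgeR adjusted p = 0.135). WT1 and PAX2 of the same list had log2 fold changes of -0.0009 and 0.19. Fibroblast markers summed to 7.95 and 10.1 against 9.34 and 9.53 CPM. Blood cell markers summed to 0.398 and 0.238 against 0.992 and 1.24 CPM, too few reads for any of the 4 to be tested. The sums of the progenitor and fibroblast lists overlapped between the groups. Those of the kidney and blood lists were higher in the knockout and that of the chromaffin list was lower. The groups did not overlap for 46.3% of all tested genes, so nothing is read from these sums. The part of these markers in the results on the 7 genes was not tested.

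The 5 protein-coding genes whose 4 values lay nearest to those of NEFM, by Euclidean distance of centred log2(CPM + 0.5) among 11097 genes, were TSC22D3 (0.898), SLC7A11 (1.02), ADGRL3 (1.06), NPTX1 (1.23) and ZNF426 (1.24). TSC22D3, a glucocorticoid-induced leucine zipper gene, had 24.8 and 83.2 CPM in parental cells against 4.26 and 4.91 in the knockout. SLC7A11, the cystine importer gene, had 117.2 and 223.6 against 42.7 and 48.0 CPM. ADGRL3, a latrophilin receptor gene, had 16.4 and 20.5 against 0.992 and 0.71 CPM. TSC22D3, SLC7A11, ADGRL3 and NPTX1 shared with NEFM the higher value in parental replicate 2, and ZNF426 (9.83 and 6.19 against 1.93 and 0.947 CPM) did not. The set depends on the measure: ranking by Pearson correlation gave 5 genes of which 0 were shared, and a minimum average log2 CPM of 4 in place of 2 kept 2. With 4 libraries this is a likeness of shape and is given as a description.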

How the data were processed

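Total RNA of 2 parental and 2 LARP7 knockout libraries was measured. The deposited tables list for each transcript, per the file headers, an estimated count of reads, a TPM and an effective length. Per the submitters' processing notes the build was hg38 and the tools were Salmon 1.6, STAR 2.5.3a, cutadapt 1.6, Picard, SAMtools 1.3.1, edgeR 3.24.3 and R (3.3.3, 3.5.1). The columns are those of a Salmon table, and the counts were taken to be Salmon's. The sources used here do not give their roles, the release of the annotation or the use of strand. Effective length, as deposited, served only for a length offset; by length minus effective length, fragments were shorter in the parental libraries (217.0 and 206.7 bases) than in the knockout (232.9 and 225.8 bases), and the part of this in the results was not tested.

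Transcripts were joined to GENCODE v29 by identifier: 197318 of 198002 matched, and the 684 others were left out. Estimated counts were summed per gene, rounded, filtered (filterByExpr) and tested over 18484 genes with edgeR 4.0.16 in R 4.3.3 (scaled by TMM, quasi-likelihood F test of knockout against parental, p adjusted by Benjamini-Hochberg and called under 0.05). The SE is the log2 fold change over the root of F. Transcript shares came from the authors' TPM, over transcripts with a mean of at least 10 reads. The alternatives were DESeq2 1.42.0, limma voom 3.58.1, other scalings, filters, counting and designs, and each library left out in turn. The test was tried on simulated data. In 1 simulation of this comparison over 17889 genes, 193 of 200 genes changed 4-fold were called, beside 9 unchanged ones. The changed genes were drawn only from those above a minimum expected count. Their simulated spread followed the trend over genes, without a spread of each gene's own. The result therefore does not cover low-count genes such as NEFH, PRPH, STC1 and ENO2.

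The family and the gene lists were chosen with earlier results of these data known. Genes are named by this rule: the 7 family genes; of each list, called genes and some of up to 4 tested genes with the highest level; of neighbours, called genes and the nearest on each side; and the 5 genes nearest to NEFM in pattern. REST, UCHL1 and ENO2 are named outside it, and it does not fix which of the 4 are named. The 7SK entry was picked for holding the reads. Counts limit precision: at fewer than about 20 reads, as for NEFH and PRPH, no direction can be told.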

Additional observations from a re-analysis of the deposited data

How the results depend on the processing

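Over 15 alternatives the log2 fold change ran from -3.17 to -2.60 for NEFM, whose fall led to the choice of the family, and from 0.22 to 1.25 for NES. The number of genes changed, 154, was 404 with DESeq2, 831 without a filter, 91 with a transcript length offset, 1656 with a replicate block, and 200 to 2265 with 1 library left out (2265 without parental replicate 1, 1825 without parental replicate 2). The split was 61 higher and 93 lower, and 106 and 82 with library size alone, where the median of all genes moved to 0.10. For the pairing, the correlation across 12409 genes of the difference between replicates 1 and 2 in parental cells with that in the knockout was 0.226, and the labels tie no numbers together. INA passed without a filter (log2 fold change 0.54), with the replicate block (0.56) and without parental replicate 1, and lay between 0.28 and 0.85 with 1 library left out. VIM passed without parental replicate 1 (0.38; 0.20 to 0.38 with 1 library left out). NEFL was 0.0137 with library size alone and -0.16 to 0.0017 with 1 library left out. NEFH was -0.0028 with DESeq2, -0.0220 with limma voom, -0.0009 over protein-coding genes, -0.0733 with the replicate block, -0.0258 over protein-coding transcripts, and -1.14 to 0.88 with 1 library left out. PRPH was 0.0860 with the length offset and -0.85 to 0.20 with 1 library left out. LMNB1 was 0.0858 with the length offset. Past the share rule were 5 transcripts, 4 with a minimum mean of 50 reads, and 2 with shares of estimated reads. For the last 2 settings the share of all transcripts past the rule is not given, and nothing is read from these counts. Calls among the 60 neighbours and in the neuronal, cytolinker, turnover, motor, microtubule, keratin, other filament and kidney lists changed with the setting. So did the number over all genes, and nothing is read from these calls. The other lists had 0 calls in all settings. The cause of these shifts was not tested. NEFH and PRPH had no value under the stricter filter, nor PRPH over protein-coding transcripts.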
